A study of Mus musculus with 8 samples.

Results

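NF-kB is a family of transcription factors that act as dimers and that most cells hold inactive in the cytoplasm. The genes described here encode its subunits and the proteins that NF-kB itself induces and that feed back on it. They were chosen by name: Rela, Rel and Nfkb1 as subunits of the canonical pathway, Nfkb2 and Relb as subunits of the non-canonical pathway, the inhibitor genes Nfkbia, Nfkbie and Tnfaip3, and the receptor-associated genes Traf1 and Birc3. Of these 10 genes, 9 were measured, each by 1 probe set, among 19938 genes in all. Nfkb1 is not analysed here.

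The RNA came from bone marrow of C57Bl/6 mice. The c-Kit+ cells were transduced either with a lentivirus that expressed KLF7, a transcription factor of the Krüppel-like family, or with a control virus. After 72 hours the Lin- c-Kit+ Sca-1+ cells (KLS cells), in which stem cells and early progenitors are concentrated, were sorted, and their RNA was amplified and hybridised, 1 array per sample. Each of the 2 groups, KLF7 and control, had 4 arrays. No knockout or other transgene is named for either group, both went through transduction and culture, and no untransduced cells were included. The sources used here do not give the cargo of the control virus, the share of cells transduced or whether arrays came from separate animals or cultures, so p-values here reflect array-to-array spread alone, and that spread may be technical.

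In the canonical pathway, receptors of tumour necrosis factor, interleukin 1 and microbial products activate the IKK kinase complex, which marks the inhibitor IkB-alpha for destruction and frees dimers that contain RelA or c-Rel. In the non-canonical pathway, receptors such as CD40 and BAFF receptor stabilise the kinase NIK, the product of Map3k14. NIK then drives the cleavage of p100, the product of Nfkb2, to p52, which acts with RelB. NF-kB induces several of its own subunits and inhibitors, and in blood cells the non-canonical subunits are known for their part in the maturation of dendritic cells and B cells. Much of the regulation is on protein, which arrays of RNA do not read.

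Promoters of these genes differ in whether they hold a match to the kappa-B consensus, the 10-base pattern that NF-kB dimers bind. RefSeq windows of 300 bases, from 250 before to 50 after each transcription start, were held for 8 of the members (build GRCm38.p6). At least 1 match on either strand was found for 5 of the 8, namely Rel, Nfkb2, Nfkbia, Nfkbie and Tnfaip3, against 9.55% of 27025 genes. None was found in the windows of Rela, Traf1 and Birc3. The windows of these genes were also searched on both strands for the letters CCACCC, the CACCC box that Krüppel-like factors bind, and GGGCGG, the GC box. CCACCC was in the windows of 3 of the 8 (Rel, Nfkb2 and Birc3), against 34% of genes, and GGGCGG in those of 6 (all but Traf1 and Birc3), against 38.2%. Matches of different motifs may overlap. These are matches of letters, not measured sites. The 250 bases before the start are shown for 4 genes, 5′ to 3′ on the gene's strand with kappa-B matches in capitals. Nfkb2 (chr19:46304487-46304736, plus strand, the first of its 3 starts), Rel (chr11:23770970-23771219, minus strand) and Nfkbia (chr12:55492648-55492897, minus strand) show matches in a non-canonical subunit, a canonical subunit and an inhibitor. Traf1 (chr2:34961773-34962022, minus strand), the member with the largest difference below, shows a window without one.
Nfkb2: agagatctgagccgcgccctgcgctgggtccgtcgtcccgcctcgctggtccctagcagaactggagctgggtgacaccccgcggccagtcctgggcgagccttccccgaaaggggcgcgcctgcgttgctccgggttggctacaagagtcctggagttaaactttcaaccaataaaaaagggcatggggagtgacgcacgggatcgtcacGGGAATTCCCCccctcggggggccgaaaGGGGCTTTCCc
Rel: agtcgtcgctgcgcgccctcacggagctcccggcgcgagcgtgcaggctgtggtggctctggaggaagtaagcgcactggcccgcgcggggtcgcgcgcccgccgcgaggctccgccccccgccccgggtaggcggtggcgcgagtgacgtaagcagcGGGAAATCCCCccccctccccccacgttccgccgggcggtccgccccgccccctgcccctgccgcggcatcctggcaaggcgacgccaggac
Nfkbia: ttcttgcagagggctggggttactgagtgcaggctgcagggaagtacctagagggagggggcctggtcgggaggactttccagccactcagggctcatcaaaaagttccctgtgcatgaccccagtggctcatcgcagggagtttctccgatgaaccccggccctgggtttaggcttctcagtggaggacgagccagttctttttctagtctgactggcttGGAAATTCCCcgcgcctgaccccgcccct
Traf1: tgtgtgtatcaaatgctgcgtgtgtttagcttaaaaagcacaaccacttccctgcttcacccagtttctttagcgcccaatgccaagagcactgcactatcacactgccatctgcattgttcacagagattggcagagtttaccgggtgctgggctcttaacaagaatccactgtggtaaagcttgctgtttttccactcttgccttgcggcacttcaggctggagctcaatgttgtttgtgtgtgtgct
The matches in Nfkb2 begin 39, 38 and 11 bases before the start, the first pair overlapping. In Rel an overlapping pair begins 92 and 91 bases before the start, and in Nfkbia a single match begins 29 bases before it.

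The arrays were alike in overall level. Their median intensity lay between 46.2 and 54.1 over all probe sets, and any 2 arrays correlated across genes at 0.936 to 0.982. Klf7, the transduced gene, averaged 10.80 ± 0.55 in log2 intensity on the KLF7 arrays and 9.04 ± 1.00 on the control arrays (SD, n = 4 each; difference 1.76, SE 0.46, limma adjusted p = 0.327), but control 2, at 10.28, exceeded KLF7 2, at 10.19. Directions below thus follow the labels of the arrays. Kit, which encodes the receptor used in the sort, lay between 9.57 and 10.52 on the arrays numbered 1 to 3. On the arrays numbered 4 it was lower, at 7.85 for KLF7 and 8.33 for control. Ly6a, which encodes Sca-1, is not analysed here. Of the lineage markers, 3 of 5 B cell and 4 of 5 T cell genes lay below the array's median gene on all 8 arrays. Genes of mature myeloid cells were mixed. S100a8, a neutrophil marker gene, lay between 8.98 and 12.65, with the arrays numbered 4 the lowest of each group. The MHC class II gene H2-Aa lay between 8.49 and 11.69. Both lay above the median gene, while 2 of 8 neutrophil genes, Ly6g and Retnlg, lay below it on all 8 arrays. Ltf ranged from 4.75 to 8.69 and was highest on KLF7 3 (8.69) and control 3 (7.38).

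The KLF7 mean exceeded the control mean for all 9 measured members, and their median difference was 0.51 on the log2 scale, against 0.0019 for all genes. None passed the test: in limma with Benjamini-Hochberg adjustment over 19938 genes, 0 members and 0 genes of all (0%) had an adjusted p under 0.05. At an unadjusted p under 0.05 there were 3 members, Traf1, Relb and Nfkb2, all higher, against 4.65% of all genes in that direction. The KLF7 arrays lay wholly above the control arrays for 4 members, Traf1, Relb, Nfkb2 and Birc3, against 2.83% of all genes. They lay wholly below for 0 members, against 2.38% of all genes. The members were chosen with earlier results of these arrays known, so these shares are not independent evidence. The array labelled KLF7 1 was the highest of the 8 for every measured member except Rela. Without it, 8 of the 9 members kept a higher mean and the median difference was 0.33.

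**Figure D1:**
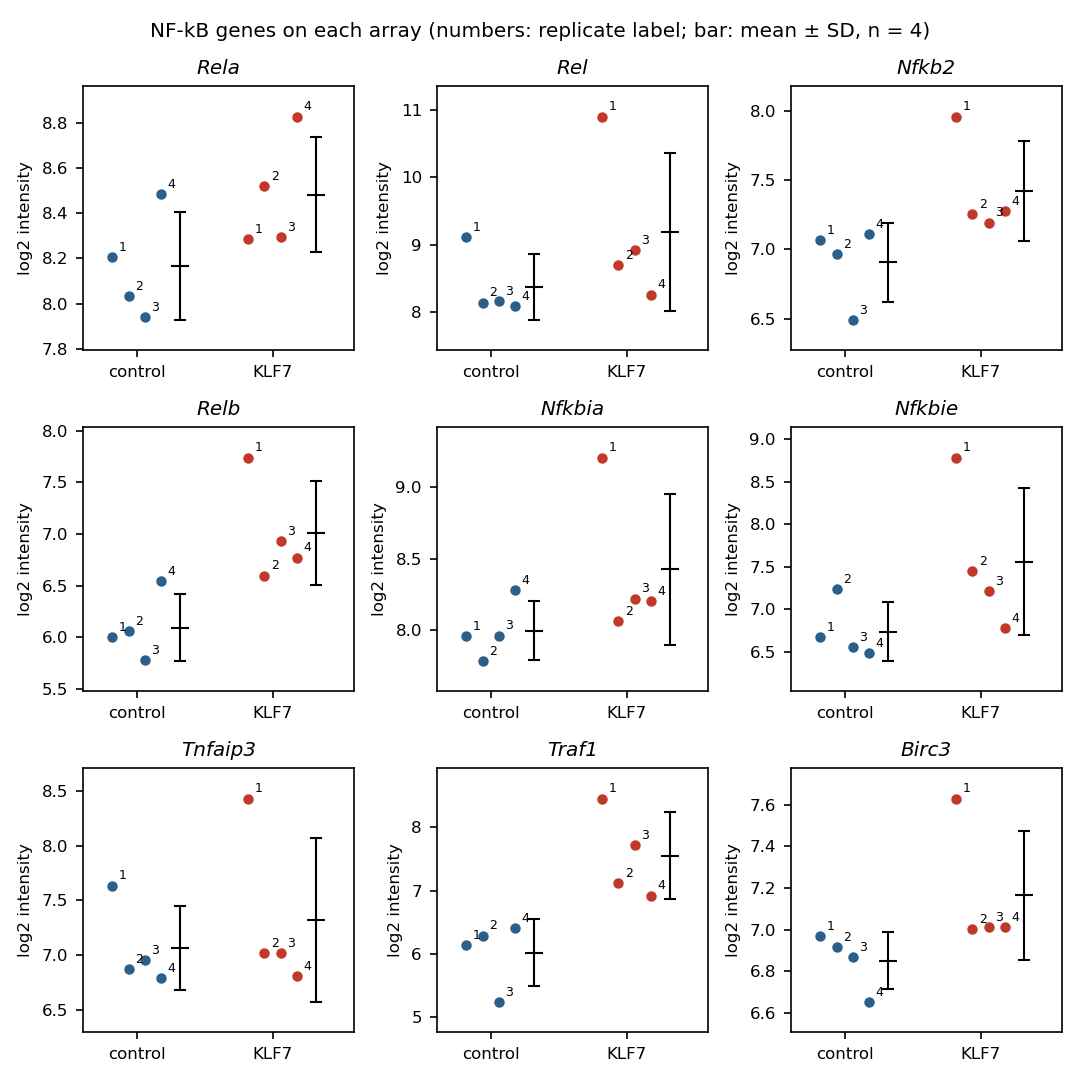
Log2 intensity of the 9 measured genes on each array, with control arrays in blue, KLF7 arrays in red, the replicate label beside each point and the mean ± SD (n = 4) as a black bar. Array KLF7 1 is the highest point in every panel except that of Rela, and the groups do not overlap for Nfkb2, Relb, Traf1 and Birc3.

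Relb, which encodes the transcription-activating partner of p52, differed most among the subunits on the 8 arrays. Its log2 intensity was 7.74, 6.60, 6.93 and 6.77 on KLF7 arrays 1 to 4 and 6.00, 6.06, 5.78 and 6.54 on control arrays 1 to 4. Every KLF7 array lay above every control array, although KLF7 2 and control 4 were close. The means were 7.01 ± 0.51 and 6.09 ± 0.32 (SD, n = 4 each), a difference of 0.91 (SE 0.26, 95% interval 0.34 to 1.49, 1.88-fold, limma adjusted p = 0.373). The difference lay between 0.67, without KLF7 1, and 1.06, without control 4, as single arrays were left out. The order of Relb and Rel turned in 3 settings: without KLF7 4 Rel was at 1.13 and Relb at 0.99, without control 1 they were at 1.06 and 0.88, and with log2(intensity + 16) at 0.79 and 0.78.

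Nfkb2 encodes p100, which is both an inhibitor of RelB and the precursor of p52. It lay at 7.96, 7.26, 7.19 and 7.28 on the KLF7 arrays and at 7.07, 6.97, 6.49 and 7.11 on the control arrays. The groups did not overlap, but the highest control array and the lowest KLF7 array were 7.11 and 7.19. The means of 7.42 ± 0.36 and 6.91 ± 0.28 (SD, n = 4 each) differed by 0.51 (SE 0.22, 95% interval 0.03 to 1.00, 1.43-fold, limma adjusted p = 0.579). Without KLF7 1 the difference was 0.33.

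Rel encodes c-Rel, a canonical subunit found mainly in blood cells, and its values were the most scattered. The KLF7 arrays lay at 10.90, 8.70, 8.92 and 8.26, and the control arrays at 9.11, 8.14, 8.17 and 8.09. KLF7 1 stood far above the other arrays, and control 1 lay above the other KLF7 arrays. The difference of 0.82 (SE 0.50, 95% interval -0.29 to 1.93, limma adjusted p = 0.767) was smaller than the spread of the KLF7 arrays (SD 1.17, n = 4). The arrays numbered 1 were the highest of each group. Without KLF7 1, and with control 1 kept, the difference was 0.25, and without control 1 alone it was 1.06. A setting without both was not run.

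Rela encodes p65, the main activating subunit of canonical dimers, and was the 1 member for which KLF7 1 was not the highest array. It lay at 8.28, 8.52, 8.30 and 8.83 on the KLF7 arrays and at 8.21, 8.03, 7.94 and 8.48 on the control arrays. The arrays numbered 4 were the highest of each group, and control 4 lay above KLF7 1 and KLF7 3. The difference was 0.32 (SE 0.20, 95% interval -0.12 to 0.75, limma adjusted p = 0.770), 0.38 without KLF7 1 and 0.20 without KLF7 4.

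The subunits were then set against each other on each array, after each gene was centred on its mean over the 8 arrays, since probe sets of different genes cannot be compared in level. The mean of Nfkb2 and Relb deviated by 0.99, 0.07, 0.20 and 0.17 on KLF7 arrays 1 to 4 and by -0.32, -0.35, -0.72 and -0.03 on the control arrays, without overlap. The mean of Rela and Rel deviated by 1.04, 0.06, 0.05 and -0.01 on the KLF7 arrays and by 0.10, -0.47, -0.50 and -0.27 on the control arrays. For the canonical pair, control 1 lay above KLF7 2, 3 and 4. The non-canonical minus the canonical mean was -0.05, 0.01, 0.15 and 0.18 on the KLF7 arrays and -0.43, 0.12, -0.22 and 0.24 on the control arrays. These values overlapped widely, with group means of 0.07 ± 0.11 and -0.07 ± 0.31 (SD, n = 4 each). The balance between the pairs therefore differed between the groups by 0.15, less than the spread between control arrays, and no test was made of this score. Leaving out control 1 brought the 0.15 down to 0.03, and leaving out control 4 took it to 0.25.

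**Figure D2:**
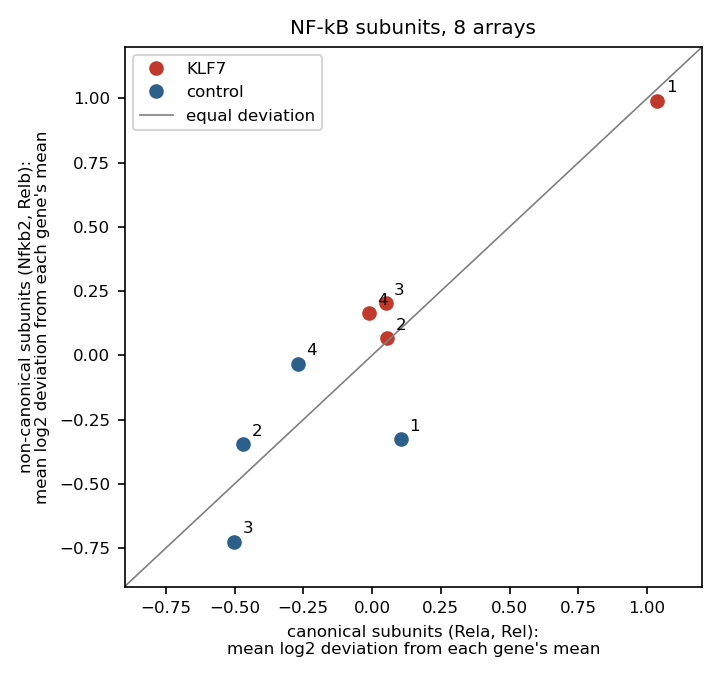
Mean log2 deviation of the non-canonical subunit genes (Nfkb2, Relb) against that of the canonical ones (Rela, Rel) on each array, with the replicate label beside each point and a grey line of equal deviation. Array KLF7 1 lies at the upper right, at 1.04 and 0.99, the other 3 KLF7 arrays lie near 0 on both axes, and control 1 lies farthest below the line.

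Among the inhibitors, Nfkbie, which encodes IkB-epsilon, a cytoplasmic inhibitor of RelA and c-Rel dimers, showed the largest difference. It lay at 8.78, 7.45, 7.21 and 6.78 on the KLF7 arrays and at 6.67, 7.24, 6.56 and 6.49 on the control arrays. Control 2 lay above KLF7 3 and KLF7 4. The difference was 0.82 (SE 0.38, 95% interval -0.01 to 1.65, 1.76-fold, limma adjusted p = 0.622), and 0.41 without KLF7 1.

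Nfkbia encodes IkB-alpha, the inhibitor that canonical NF-kB resynthesises to end its own activity. Its KLF7 arrays lay at 9.21, 8.06, 8.22 and 8.20 and its control arrays at 7.96, 7.78, 7.96 and 8.28. KLF7 2, 3 and 4 lay above control 1, 2 and 3 and below control 4. The difference of 0.43 (SE 0.26, 95% interval -0.15 to 1.00, limma adjusted p = 0.760) was 0.17 without KLF7 1.

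Tnfaip3 encodes A20, a ubiquitin-editing enzyme that shuts off signalling upstream of IKK, and had the smallest difference of the members on the 8 arrays. It lay at 8.43, 7.02, 7.02 and 6.81 on the KLF7 arrays and at 7.63, 6.87, 6.95 and 6.79 on the control arrays. The arrays numbered 1 were the highest of both groups. The difference was 0.26 (SE 0.35, 95% interval -0.51 to 1.02, limma adjusted p = 0.941). Without KLF7 1, and with control 1 kept, it turned to -0.11. A setting without both arrays numbered 1 was not run. Array weights brought the difference to 0.14 and leaving out control 4 to 0.17, while it was 0.43 without KLF7 4 and 0.45 without control 1.

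Traf1, which encodes an adaptor of tumour necrosis factor receptors that NF-kB induces in activated lymphocytes and dendritic cells, had the largest difference of the members. Its log2 intensity was 8.45, 7.12, 7.71 and 6.92 on the KLF7 arrays and 6.14, 6.29, 5.24 and 6.41 on the control arrays. The lowest KLF7 array lay above the highest control array. The means of 7.55 ± 0.69 and 6.02 ± 0.53 (SD, n = 4 each) differed by 1.53 (SE 0.35, 95% interval 0.75 to 2.31, 2.89-fold, limma adjusted p = 0.323). It lay between 1.23, without KLF7 1, and 1.74, without KLF7 4.

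Birc3 encodes cIAP2, a ubiquitin ligase that TRAF proteins bring to receptors and that, with cIAP1, keeps NIK unstable in resting cells. It lay at 7.631, 7.002, 7.013 and 7.013 on the KLF7 arrays and at 6.967, 6.914, 6.868 and 6.652 on the control arrays. The groups did not overlap, but KLF7 2 lay barely above control 1, and after a further quantile normalization they overlapped. The difference was 0.31 (SE 0.18, 95% interval -0.10 to 0.72, limma adjusted p = 0.747). Without KLF7 1 it was 0.16, and 0.09 when both arrays numbered 4 were left out as well.

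**Figure D3:**
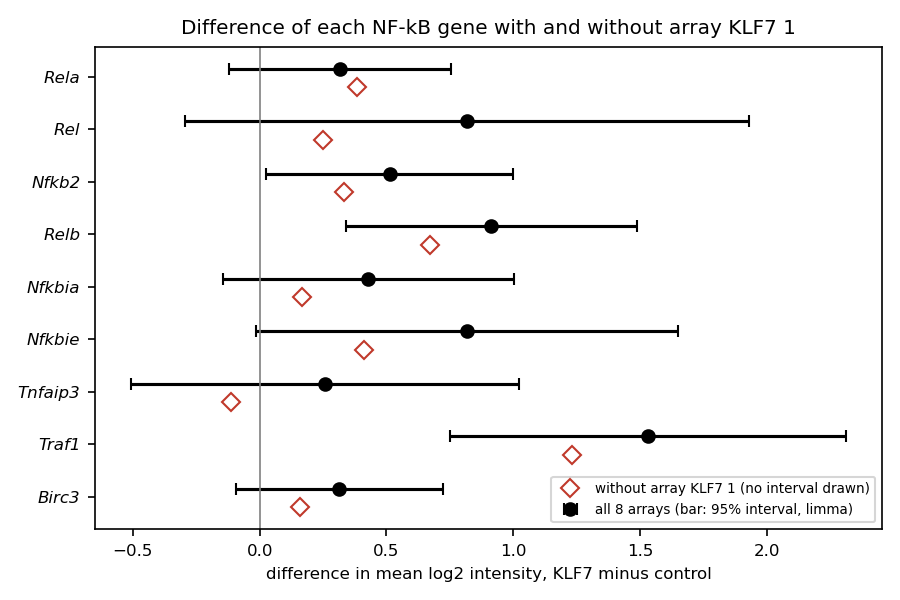
Difference in mean log2 intensity, KLF7 minus control, of the 9 measured genes on all 8 arrays (black, with the 95% interval of limma) and without array KLF7 1 (open red, with all control arrays kept). Traf1, Relb and Nfkb2 have intervals above 0 before adjustment, and without KLF7 1 the value of Tnfaip3 lies below 0, at -0.11, while that of Rela, at 0.38, is the 1 that is not smaller.

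The genes that varied most like Traf1, Relb and Nfkbia between arrays of the same group were taken as the 5 with the highest Pearson correlation over the 8 arrays after each group's mean was subtracted. For Traf1 they were Atg16l2 (r = 0.996), Map4k4 (0.989), Clec2m (0.989), Gm8479 (0.979) and Slc6a6 (0.975). For Relb they were Sec14l5 (0.990), 4930426L09Rik (0.974), Pirb (0.973), Crebrf (0.965) and Cd200 (0.964). For Nfkbia they were Tigd4 (0.993), Mamld1 (0.988), Smc1b (0.978), Eaf2 (0.976) and Tent2 (0.961). No member was among these. Many were dim, with a mean below the lowest array median of 5.77. For Traf1 these were Clec2m (4.11) and Gm8479 (3.59), and for Relb Sec14l5 (4.66), 4930426L09Rik (5.45) and Cd200 (5.69). For Nfkbia they were Tigd4 (3.80), Mamld1 (5.67), Smc1b (3.32) and Eaf2 (4.05). The values are the highest of 19937 correlations over 8 arrays that share array KLF7 1, and they describe these arrays only. Over the alternatives run, the lowest value of each gene lay between 0.862 (Clec2m, after a further quantile normalization) and 0.972 for Traf1. For Relb it lay between 0.581 (Cd200) and 0.941, and for Nfkbia between 0.044 (Tent2) and 0.825, with the lows of Cd200 and Tent2 found when KLF7 1 and both arrays numbered 4 were left out. Without KLF7 1 alone, Cd200 was at 0.896 and Tent2 at 0.717.

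The rest of the pathway was read from lists of 77 genes, of which 72 were measured. The KLF7 mean was the higher for 60 of the 72, against 50.4% of all genes, with a median difference of 0.23. In limma with Benjamini-Hochberg adjustment 0 of the 72 passed. At an unadjusted p under 0.05 there were 12 higher and 2 lower, against 4.65% and 3.56% of all genes. Without KLF7 1 the higher means were 47 of 72 and the median was 0.15, and without control 4 they were 52 and 0.16.

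Of 17 receptors and adaptors, 16 had a higher mean (median 0.19), against 50.4% of all genes. The KLF7 arrays lay wholly higher for 0 and wholly lower for 1, Irak1, against 2.83% and 2.38% of all genes. Tnfrsf9, which encodes the costimulatory receptor 4-1BB, to which TRAF1 binds, lay at 8.54, 9.01, 9.17 and 8.14 on the KLF7 arrays and at 7.51, 7.53, 8.16 and 7.57 on the control arrays. Control 3 and KLF7 4 were the 1 pair out of order, and the difference was 1.02 (SE 0.26, 2.03-fold, limma adjusted p = 0.327). Irak1, a kinase gene of interleukin 1 and Toll-like receptor signalling, was the 1 gene of this list with a lower mean. It lay at 7.75, 7.77, 7.74 and 7.85 on the KLF7 arrays and at 8.26, 8.21, 8.33 and 8.28 on the control arrays, without overlap and with little spread (difference -0.49, SE 0.15, limma adjusted p = 0.396). Myd88, the adaptor gene of those receptors, was at 0.66 (SE 0.28), Tlr2, a Toll-like receptor gene, at 0.54 (SE 0.32) and Tnfrsf11a, which encodes RANK, at 0.45 (SE 0.22). Myd88 was at 0.39 without KLF7 4, Tlr2 at 0.29 without KLF7 1 or without control 2, and Tnfrsf11a at 0.25 without KLF7 1. Cd40, a receptor gene of the non-canonical pathway, was at 0.19 (SE 0.14, and 0.12 without control 2) and Traf2, an adaptor gene of both pathways, at 0.21 (SE 0.15).

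Of 9 kinases, 6 had a higher mean (median 0.14), against 50.4% of all genes. Map3k14, which encodes NIK, lay at 8.75, 7.08, 7.59 and 6.97 on the KLF7 arrays and at 6.81, 7.22, 6.32 and 6.38 on the control arrays. KLF7 1 was again the highest array, and control 2 lay above KLF7 2 and KLF7 4. The difference of 0.92 (SE 0.37, 1.89-fold, limma adjusted p = 0.539) was 0.53 without KLF7 1. Ikbke, an IKK-related kinase gene of the interferon response, was at -0.48 (SE 0.24), with control 4, at 6.95, among the KLF7 arrays, which lay between 6.90 and 7.37. The smaller values were 0.26 (SE 0.27) for Map3k8, 0.16 (SE 0.17) for Map3k7, 0.15 (SE 0.21) for Ikbkb and -0.14 (SE 0.16) for Ikbkg, the last pair being subunits of the IKK complex. None of these 4 stood clear of its error, and single arrays moved each by over 1.5 times.

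Of 16 other inhibitors and co-factors, 14 had a higher mean (median 0.28), against 50.4% of all genes. Cyld, which encodes a deubiquitinase that restrains the pathway, lay at 9.25, 8.29, 8.33 and 8.56 on the KLF7 arrays and at 8.23, 7.94, 8.03 and 8.14 on the control arrays, without overlap (difference 0.52, SE 0.23, limma adjusted p = 0.600, 0.30 without KLF7 1). Tax1bp1, whose product assists A20, was the other gene of this list without overlap (0.30, SE 0.16). The KLF7 arrays thus lay wholly higher for 2 of the 16, against 2.83% of all genes. Otud7b, a deubiquitinase gene of the non-canonical pathway, was at 0.37 (SE 0.16), Nfkbib, which encodes IkB-beta, at 0.32 (SE 0.19) and N4bp1 at 0.34 (SE 0.26). Nfkbib was at 0.18 without control 3 and N4bp1 at 0.13 without control 2. Birc2, the gene of cIAP1 and partner of Birc3, was at 0.39 (SE 0.32), at 0.04 without KLF7 1 and at 0.63 without KLF7 4. With the mean of its probe sets in place of the brightest, it was at 0.23 (SE 0.23).

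Of 30 target genes of NF-kB, 24 had a higher mean (median 0.31), against 50.4% of all genes. At an unadjusted p under 0.05 there were 7 higher and 1 lower, against 4.65% and 3.56% of all genes. The lower one was Ccl19 (-0.40, SE 0.17), and Vcam1 had the lowest value (-0.75, SE 0.45). Cd86 had the highest value (1.45, SE 0.65), with KLF7 1 at 9.73 and the other KLF7 arrays between 6.60 and 7.01. Tnf was at 0.20 (SE 0.28) and Cflar at 0.02 (SE 0.28). The 5 genes below had the smallest p of the list, and all were higher. Ccl22, a chemokine gene of dendritic cells and macrophages, lay at 7.96, 8.12, 8.39 and 7.89 on the KLF7 arrays and at 6.95, 5.88, 6.53 and 7.41 on the control arrays. The groups did not overlap, and KLF7 1 was not the highest array (difference 1.40, SE 0.29, 2.63-fold, limma adjusted p = 0.290). Ccr7, the chemokine receptor gene that mature dendritic cells use to reach lymph nodes, lay at 9.57, 8.38, 8.75 and 8.02 against 7.34, 7.30, 7.21 and 7.75 (1.28, SE 0.30, 2.42-fold, limma adjusted p = 0.323). Cd83, a surface marker gene of mature dendritic cells, lay at 8.37, 7.48, 7.87 and 6.77 against 6.52, 5.92, 6.47 and 6.71 (1.22, SE 0.31, 2.32-fold, limma adjusted p = 0.327). Neither gene overlapped between the groups, although for Cd83 KLF7 4 came close to control 4. Of the 30 target genes, 4 lay wholly higher on the KLF7 arrays and 0 wholly lower, against 2.83% and 2.38% of all genes. Ccl5, a chemokine gene of T cells and myeloid cells, was at 0.93 (SE 0.31), and at 0.59 without KLF7 2 and control 2. Ier3, an immediate early gene, was at 0.67 (SE 0.27).

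**Figure D4:**
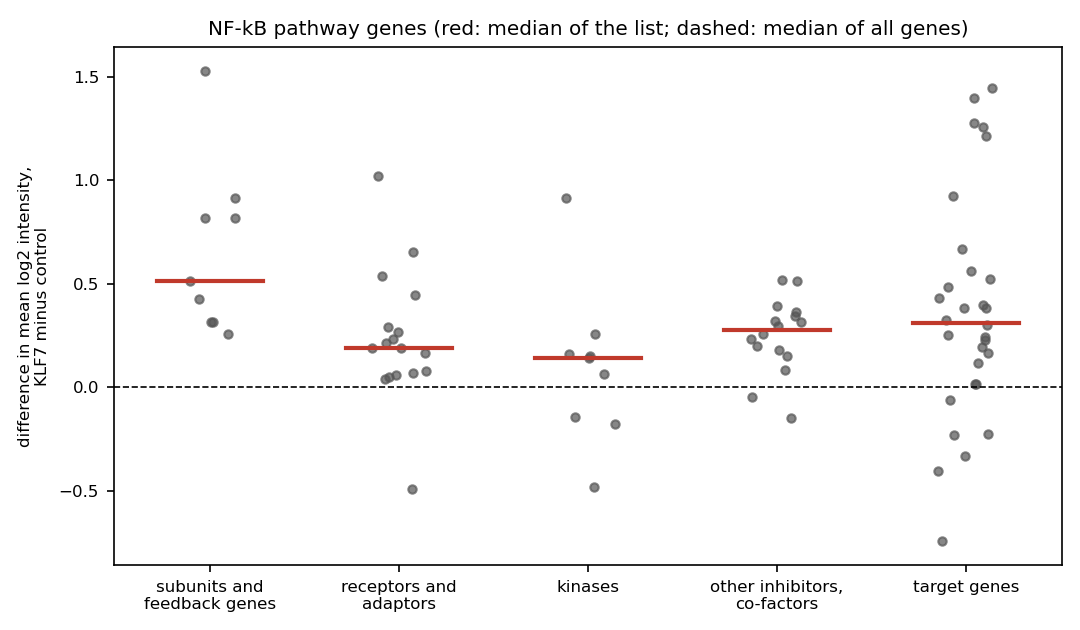
Difference in mean log2 intensity, KLF7 minus control, of each measured gene (grey points) of the subunit and feedback set and of 4 lists of other NF-kB pathway genes, with the median of each list in red and the median of all genes (0.0019) as a dashed line. The medians are 0.51, 0.19, 0.14, 0.28 and 0.31 from left to right, and Irak1 is the lone point below 0 among the receptors and adaptors.

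Marker genes of dendritic cells and macrophages were read beside these values. Of 16 measured, 11 had the higher mean in the KLF7 group, against 50.4% of all genes. At an unadjusted p under 0.05 there were 7 higher and 0 lower, against 4.65% and 3.56% of all genes. The 7 were Itgax, Adgre1 and the MHC class II presentation genes H2-Aa, H2-Ab1, H2-Eb1, Cd74 and Ciita. The latter serve 1 process and are not independent markers. None of the 16 passed in limma with Benjamini-Hochberg adjustment (smallest adjusted p = 0.327). The mean log2 intensity of the list was 8.12, 7.63, 7.32 and 7.66 on KLF7 arrays 1 to 4 and 7.38, 7.08, 6.56 and 7.55 on control arrays 1 to 4. KLF7 1 had the highest value, as it did for most members, but the groups overlapped, since control 1 and control 4 lay above KLF7 3. Itgax, which encodes CD11c, differed by 1.29 (SE 0.38, limma adjusted p = 0.392), and H2-Aa by 1.41 (SE 0.44, limma adjusted p = 0.415). The macrophage genes of the list went both ways. Adgre1 was at 0.86 (SE 0.27, limma adjusted p = 0.410), Csf1r at 0.36 (SE 0.42) and Cx3cr1 at 0.32 (SE 0.16). Cd68 and C1qb were at -0.03 (SE 0.32) and -0.16 (SE 0.47). Zbtb46, Xcr1, Clec9a and Siglech, which define subsets of dendritic cells, and C1qa, a macrophage complement gene, lay below the array's median gene on all 8 arrays. Neutrophil markers ranged from 6.98 to 9.03 on the KLF7 arrays and 6.78 to 8.49 on the control arrays, B cell markers from 4.90 to 4.98 and 4.90 to 5.16, and T cell markers from 4.44 to 4.91 and 4.54 to 4.76. Of 10 stem and progenitor genes, 7 had the higher mean in the KLF7 group and 3, Hlf, Hoxa9 and Mecom, the lower. Hlf was the 1 that lay wholly lower on the KLF7 arrays, against 2.38% of all genes (difference -0.90, SE 0.23, limma adjusted p = 0.327). Of 3 erythroid genes, 0 had the higher mean (median -0.26). More cells of a type and more RNA per cell cannot be told apart in bulk RNA, and the part of these cells in the NF-kB values was not tested.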

How the data were processed

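The 8 biotin-labelled expression arrays (4 KLF7, 4 control, grouped by their titles) measured total RNA of KLS cells of mouse bone marrow. The RNA was amplified with the NuGen Ovation System, per the labels' protocols. The deposited values are probe set intensities on a linear scale (2.20 to 15393), which per the submitters' processing notes the authors made with RMA and Affymetrix Expression Console. RMA corrects background and normalises between arrays, which can compress differences of dim genes. Versions and build: not given in the sources used here. No columns of other samples were present.

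Log2 was taken. Of 35554 probe sets, 21789 carried 1 gene symbol, 1621 several and 12144 none, per the platform's annotation. No gene was named from several. The probe set with the highest mean stood for a gene, giving 19938 genes, dim ones included. The fit over all arrays and genes used lmFit and eBayes (trend on intensity) of limma 3.58.1 in R 4.3.3, with no term but group, and two-sided tests with Benjamini-Hochberg adjustment over all genes and a threshold of 0.05. Intervals are at 95%, and the number of arrays limits their precision. The script was tested on simulated data.

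The members, lists and alternatives were chosen with earlier results of these data known. Named were all members, Klf7, up to 5 genes per pathway list by smallest unadjusted p, Map3k14, Traf2, Birc2, Ikbkb and Cd40 always, and the 5 genes most like each of Traf1, Relb and Nfkbia. Traf3 and Chuk, also on that list, are not analysed here. Marker genes and the target genes Ccl19, Vcam1, Cd86, Tnf and Cflar were named after their values were seen. The planned canonical score held Nfkb1 and was made from Rela and Rel alone. Promoter windows and their coordinates are RefSeq's (GRCm38.p6). Figures were drawn with matplotlib 3.10.9.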

Additional observations from a re-analysis of the deposited data

Results flagged for a closer look

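A highest or lowest array far from the other 3 of its group was looked for in 72 groups of 4. These were the arrays of the members, of Klf7, of the pathway genes named by rule and of the averages. The measure was the gap to the nearest array divided by the group's range, with Dixon's 95% critical value as the limit. Chance passes the limit in about 1 of 20 groups, and 8 groups passed, each by its highest array. The groups are not independent, since they hold the same 8 arrays and genes that vary together. Array KLF7 1 was the distant array for Birc3 (0.982), Nfkb2 (0.893), Tnfaip3 (0.872), Nfkbia (0.864), the receptor gene Tlr2 (0.84) and the mean of the 9 members (0.844). Control 1 was distant for Rel (0.921) and control 3 for Tnfrsf9 (0.898), each above the other control arrays. The cause was not tested.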

How the results depend on the processing

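No member and none of the other pathway genes passed an adjusted p of 0.05 in limma under any of the 20 alternatives run, of which 19 were planned and 1, leaving out KLF7 1 and both arrays numbered 4, was chosen after seeing the data. Over all genes, 0 were called on the 8 arrays (1637 at an unadjusted p under 0.05). Of the alternatives, the replicate number as a block called 90 genes, arrays numbered 4 as a batch term 26, the setting chosen after seeing the data 1, and leaving out each array in turn 0 to 1. With the replicate block, Traf1 had the smallest adjusted p of the members (0.0764). For Rel the SE was 0.25 with the block and 0.50 without it (limma adjusted p = 0.176 and 0.767). The labels do not say whether same-numbered arrays share a source. Their deviations from group means correlated at 0.35, -0.13, 0.36 and 0.70 for numbers 1 to 4, and 6 of the 8 arrays correlated best with the array of their own number, a hint from the data. The main fit did not take the numbers as pairs, since the labels name none. Number 2, where Klf7 was higher on the control array, was also below 0. Rela, Rel, Nfkbie and Tnfaip3, whose groups overlap, were higher on the KLF7 array than on the control array of the same number in 4 of 4 numbers. Nfkbia was so in 3, and the share of all genes was not counted. With the block 5 members had an unadjusted p under 0.05, against 3 without it. Over all genes the count rose as well, from 1637 to 2691, and the share called higher from 4.65% to 7.57%. The median difference of the members lay between 0.33 and 0.63 and that of the other pathway genes between 0.14 and 0.29. The difference between non-canonical and canonical subunits lay between 0.03 and 0.26, and the block, the batch term, array weights and the prior do not enter it. The values of 8 members kept their direction throughout. As single arrays were left out, Tnfaip3 ranged from -0.11, without KLF7 1, to 0.45, without control 1. It turned to -0.14 without KLF7 1 and both arrays numbered 4. The settings below 0 take out its highest array and keep control 1, its next highest. The arrays numbered 2 and those numbered 4 were left out as pairs, and those numbered 1 were not. Only the repeated quantile normalization and the centring of array medians could bring overlap to genes without it. Traf1, Relb and Nfkb2 had none in either, and Birc3 overlapped in the first.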
